A study of Mus musculus with 4 samples.

Results

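The genes described here are the 10 members of a melanocortin, endothelin and cAMP signalling set in a mouse melanoma line: Mc1r, Ednrb, Adcy9, Prkaca, Prkar1a, Creb1, Crtc3, Pde4b, Pde4d and Ppargc1a. They were taken by name, and every array probe whose RefSeq accession belongs to one of these symbols was read. This gave 18 probes for the 10 genes, out of 20832 genes with a named probe on the array. Mc1r, Adcy9 and Prkaca had 1 probe each, and the other 7 genes had more than 1.

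In pigment cells, melanocortin peptides bind the receptor Mc1r, which acts through the stimulatory G protein on adenylyl cyclases, and the cAMP they make releases the catalytic subunits of protein kinase A from their regulatory subunits. The kinase acts on the transcription factor Creb1, whose CRTC coactivators enter the nucleus when cAMP is high, and Creb1 in turn drives genes such as Mitf, the master regulator of pigment genes, and Ppargc1a, the coactivator PGC-1alpha. Phosphodiesterases of the PDE4 family break cAMP down, and Ednrb, the endothelin B receptor, is a second G protein-coupled receptor that melanoblasts need for their expansion and migration.

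B16-F10 is an established mouse melanoma line, grown in serum-containing medium, and no drug, hormone or ligand was added to any group. Cells were separated by flow cytometry on the Met receptor tyrosine kinase at their surface into a Met-low and a Met-high population, and each was kept in culture for 3 days before total RNA was taken. Each population had 2 RNA samples, taken from cells that the study describes as prepared independently, and each sample was hybridized to 1 one-colour array with Cy3 label. The populations are subsets of 1 line and not separate clones, and the p-values measure the spread between these few preparations.

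All 4 arrays lay on 1 slide, the Met-low samples at positions 1 and 2 and the Met-high samples at positions 3 and 4, so that position and population cannot be told apart. Between 50.01% and 53.6% of 43020 spots per array were well above background, and 0 were saturated. Met itself, whose surface protein was sorted on, had intensities of 788 and 721 in Met-low cells and 1758 and 825 in Met-high cells, groups that did not overlap before scaling but did after it (adjusted p = 0.33 with limma). All 8 markers of the melanocyte lineage were well above background on all 4 arrays. Of the markers of other cell types, 1 of 6 fibroblast, 2 of 6 leukocyte, 1 of 4 endothelial and 0 of 4 keratinocyte genes were so on all arrays, while 3, 3, 2 and 1 of them were so on none. The summed fibroblast signal, in units of the 75th percentile of the array, was 0.628 and 0.685 in Met-low cells and 0.361 and 0.318 in Met-high cells. Col1a2 was the only fibroblast marker well above background on all arrays, at intensities of 480 and 803 against 214 and 299. The leukocyte sum was 3.66 and 4.42 against 3.94 and 3.13, and the endothelial sum 6.31 and 5.48 against 8.44 and 6.72. The keratinocyte sum was 0.209 and 0.116 against 0.126 and 0.106. The melanocyte markers summed to 1397 to 1707. What part other cell types had in the differences given here was not tested.

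Promoter sequence is shown for 4 members because the pathway ends on promoter elements, namely the cAMP response element TGACGTCA, its shorter core TGACG, and the E-box CACGTG and M-box core CATGTG that Mitf recognizes. Each sequence comes from RefSeq on GRCm38.p6 and reads 5′ to 3′ along the gene, with motif matches of either strand in capitals. Mc1r (chr8:123406832-123407081, + strand), Ppargc1a (chr5:51567726-51567975, - strand) and Pde4b (chr4:102421305-102421554, + strand, 1 of its several start sites) are the members whose Met-high arrays lay below the Met-low arrays and are given as the 250 bases before the start. Prkar1a (chr11:109650889-109650918, + strand) is given as 30 bases because it was the only member with the full element.
Mc1r: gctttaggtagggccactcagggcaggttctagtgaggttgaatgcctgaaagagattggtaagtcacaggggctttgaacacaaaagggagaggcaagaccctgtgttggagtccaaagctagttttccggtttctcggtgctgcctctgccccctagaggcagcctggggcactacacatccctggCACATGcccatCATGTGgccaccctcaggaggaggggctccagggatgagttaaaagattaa
Ppargc1a: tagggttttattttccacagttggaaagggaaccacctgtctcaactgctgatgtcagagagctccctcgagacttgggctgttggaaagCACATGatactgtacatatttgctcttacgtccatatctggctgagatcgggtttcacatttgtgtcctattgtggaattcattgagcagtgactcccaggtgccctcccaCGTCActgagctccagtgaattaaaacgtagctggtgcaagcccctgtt
Pde4b: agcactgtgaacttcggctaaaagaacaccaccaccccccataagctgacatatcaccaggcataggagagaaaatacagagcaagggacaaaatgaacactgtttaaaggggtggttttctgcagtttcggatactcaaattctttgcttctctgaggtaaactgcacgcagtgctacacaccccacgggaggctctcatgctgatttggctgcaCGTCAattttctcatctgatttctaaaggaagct
Prkar1a: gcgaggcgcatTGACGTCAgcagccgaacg

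In the Mc1r window the M-box core stood 62 and 51 bases before the start, on opposite strands. The Ppargc1a window held an M-box core 160 bases and a TGACG core 49 bases before the start, and the Pde4b window shown held a TGACG core 34 bases before it. Over the 19 windows of 300 bases (250 before and 50 after a start) that the reference lists for the 10 members, searched on both strands, TGACGTCA was found in 2 windows, both of Prkar1a and overlapping, where 1.79% of 32851 windows of all genes hold it. TGACG, which every TGACGTCA contains, was in 8 member windows of 6 genes (20.8% of all windows), CACGTG in 2 of 2 genes (7.15%) and CATGTG in 5 of 5 genes (14.2%). These matches are letters in a window and were not measured as bound sites.

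In the comparison of Met-high with Met-low cells, Ppargc1a had the largest difference among the members, with a signal about 2-fold lower in Met-high cells on its brightest probe. Mc1r and Pde4b were also lower on both Met-high arrays than on both Met-low arrays, and Crtc3, Adcy9 and Prkaca were higher on both. Prkar1a, Creb1 and Pde4d overlapped between the populations on their brightest probes, and Ednrb was not above background in either. None of these differences passed the threshold of 0.05 on the p adjusted over all genes.

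For the test, log2 intensities were scaled by subtracting the log2 75th percentile of the same array, each gene was represented by its brightest probe, and limma was fitted to the 11958 genes whose signal was well above background on both arrays of either population. Of the 10 members, 9 were among them. Members called at an adjusted p under 0.05 numbered 0 in either direction, where 3.74% of all genes fitted were called lower and 1.90% higher in Met-high cells. At an unadjusted p under 0.05 in limma, 2 members were lower (Ppargc1a and Pde4b) and 0 higher, against 11.8% and 14.2% of all genes. The fit over single probes, with 14 of the 18 member probes in it, also called 0 members in either direction (2.05% of all probes lower, 0.556% higher), with 3 member probes lower and 1 higher at an unadjusted p under 0.05 (11.3% and 11.1% of all probes).

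Both Met-high arrays lay below both Met-low arrays for 3 of the 9 members and above them for 3, where 22.6% of all genes lay below and 35.7% above. With 2 arrays in each population an exact permutation test of a single gene cannot give a two-sided p under 0.333. The median log2 ratio of the 9 members was 0.01, beside 0.10 over all genes fitted. Met-high minus Met-low gives the sign of every log2 ratio here. In these cultures, fewer cells of a kind and less RNA per cell cannot be told apart.

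**Figure D1:**
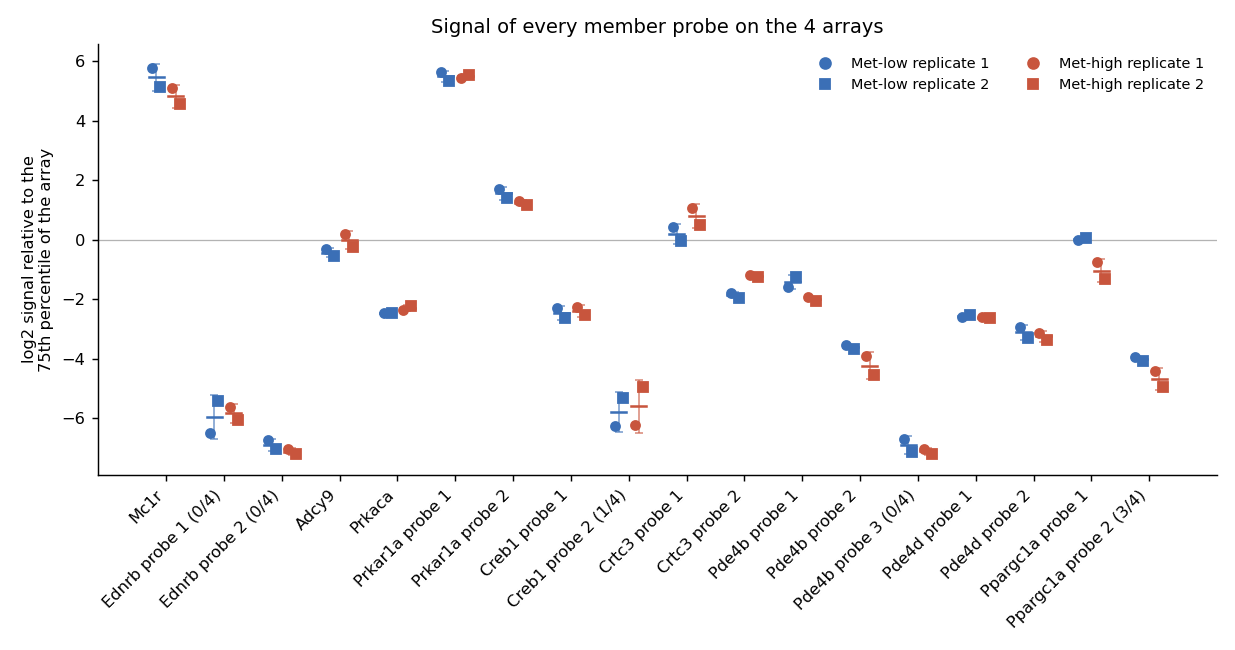
Signal of all 18 member probes on the 4 arrays, as log2 intensity above or below the 75th percentile on that array (y axis), with 1 point per array, horizontal bars for the mean and whiskers for the SD of the 2 arrays. Fractions after a name give the arrays well above background where that was not all 4, and the distances between probes along the y axis carry no meaning. The Met-high points (red) lie below the Met-low points (blue) for Mc1r and for both probes of Ppargc1a, and above them for both probes of Crtc3.

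Among the receptors, Mc1r (NM_008559), the melanocortin 1 receptor, gave a strong signal in every sample. Intensities reached 51833 and 46420 in Met-low cells, against 29424 and 25939 in Met-high cells. Relative to the 75th percentile, these were log2 signals of 5.78 and 5.12 in Met-low cells and 5.10 and 4.55 in Met-high cells. The Met-high 1 array lay just below the Met-low 2 array, so that the populations were separate by a margin far smaller than the spread within either. The log2 ratio was -0.63 (SE 0.30, 95% confidence interval -1.40 to 0.14), with an adjusted p of 0.26 in limma. Leaving out 1 array moved this ratio between -0.96, without Met-low replicate 2, and -0.30, without Met-low replicate 1.

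Ednrb (NM_007904), the endothelin B receptor, was near background in both populations. Its brighter probe read 10.5 and 31.0 in Met-low cells and 17.5 and 16.7 in Met-high cells, and the other probe lay between 6.55 and 10.2 on all 4 arrays. Neither probe was well above background on any array, so no ratio or test is given for it. The rest of the endothelin system was similarly dim. Of its 7 genes on the array (ligands, receptors and converting enzymes, Ednrb included), 0 passed the filter and 5 were well above background on no array. Edn3, a ligand of Ednrb, and Ednra, the other endothelin receptor, were so on the Met-high 1 array only, at intensities of 46.3 and 33.0.

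Adcy9 (NM_009624), a membrane adenylyl cyclase, had intensities of 754 and 911 in Met-low cells and 987 and 944 in Met-high cells. Both Met-high values were higher than both Met-low values, by a log2 ratio of 0.42 (SE 0.21, 95% confidence interval -0.12 to 0.96, adjusted p = 0.28 in limma). Prkaca (NM_008854), the alpha catalytic subunit of protein kinase A, read 172 and 240 in Met-low and 168 and 240 in Met-high cells. These raw values overlapped and the scaled ones did not, with a log2 ratio of 0.18 (SE 0.16, 95% confidence interval -0.22 to 0.58, adjusted p = 0.50).

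Prkar1a (NM_021880), the type I alpha regulatory subunit that holds the kinase inactive, was represented by 2 probes that differed in how the arrays separated. The brightest read 46338 and 54258 in Met-low cells and 37504 and 51571 in Met-high cells, with scaled values that overlapped and a log2 ratio of 0.01 (SE 0.17, 95% confidence interval -0.43 to 0.45, adjusted p = 0.98). On the dimmer probe, intensities of 3081 and 3506 stood against 2113 and 2477. There the Met-high arrays lay below the Met-low arrays by a log2 ratio of -0.33 (95% confidence interval -0.81 to 0.16, adjusted p = 0.37 in the limma fit over probes).

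Creb1 (NM_009952), the cAMP-responsive transcription factor, had intensities of 191 and 214 in Met-low cells and 180 and 192 in Met-high cells, which overlapped. Its log2 ratio was 0.08 (SE 0.20, 95% confidence interval -0.43 to 0.59, adjusted p = 0.84). A second Creb1 probe was well above background on the Met-high 2 array only and was not fitted. Crtc3 (NM_173863), a CREB coactivator, was the member with the largest difference toward Met-high cells, and it was so on both of its probes.

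On the brightest Crtc3 probe the intensities were 1280 and 1283 in Met-low cells and 1806 and 1572 in Met-high cells. The second probe gave 273 and 347 against 381 and 462. Every Met-high value exceeded every Met-low value on each probe. The log2 ratio was 0.59 on the brightest probe (SE 0.28, 95% confidence interval -0.11 to 1.30, adjusted p = 0.25) and 0.64 on the second (95% confidence interval 0.22 to 1.07, adjusted p = 0.12 in the limma fit over probes). The other CRTC coactivators were nearer to 0, at 0.24 for Crtc1 and 0.17 for Crtc2. Within an array, the brightest Crtc3 probe changed relative to the Crtc1 probe by 0.35 and relative to the brightest Crtc2 probe by 0.42 on the log2 scale. The 2 Met-high arrays did not overlap the 2 Met-low arrays in either. Crtc3 already lay apart on its own and the partners were named after their values were seen, so this is no further support.

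Pde4b (NM_019840) and Pde4d (NM_011056), both cAMP-specific phosphodiesterases, differed in how their arrays separated, and neither was called. Pde4b read 314 and 560 in Met-low cells and 225 and 268 in Met-high cells on its brightest probe, and 80.3 and 106 against 57.0 and 47.7 on its second. Met-high cells were lower on both probes without overlap. The log2 ratio was -0.58 (SE 0.19, 95% confidence interval -1.05 to -0.10, adjusted p = 0.14) on the brightest probe and -0.62 on the second (adjusted p = 0.25 in the limma fit over probes), while the third probe was near background on all 4 arrays.

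For Pde4d the intensities of the brightest probe were 155 and 233 in Met-low and 142 and 178 in Met-high cells. The populations overlapped, and the log2 ratio was -0.06 (SE 0.15, 95% confidence interval -0.45 to 0.33, adjusted p = 0.83), with -0.14 on the second probe (adjusted p = 0.73 in the limma fit over probes). The difference Pde4b minus Pde4d within an array was lower by 0.51 on the log2 scale on the Met-high arrays, and the arrays of the populations did not overlap. Pde4b already lay apart on its own, so this separation is no further support. As elsewhere, 2 arrays against 2 leave this difference without a permutation test that could pass.

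Ppargc1a (NM_008904), the coactivator PGC-1alpha, known for driving mitochondrial genes, had intensities of 934 and 1394 in Met-low cells and 507 and 447 in Met-high cells on its brightest probe. Scaled to the array, the log2 signals were -0.01 and 0.07 in Met-low cells and -0.76 and -1.31 in Met-high cells. The Met-low arrays were close together and the Met-high arrays were further apart, but the gap between populations was larger than either spread. The log2 ratio was -1.06 (SE 0.23, 95% confidence interval -1.64 to -0.48), a 2.09-fold lower signal in Met-high cells with an unadjusted p of 0.0049 and an adjusted p of 0.065 in limma. Without the Met-high 1 array the ratio was -1.34 with an adjusted p of 0.018, and a mean-variance trend in the fit gave an adjusted p of 0.040. Without the Met-high 2 array the ratio was -0.79 with an adjusted p of 0.14, and without either Met-low array the adjusted p was 0.10 and 0.11. The mean of its probes gave an adjusted p of 0.099 and no filter on dim probes one of 0.24.

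The second Ppargc1a probe, dimmer and well above background on 3 of 4 arrays, read 60.9 and 79.6 in Met-low cells and 40.4 and 36.4 in Met-high cells. It was also lower on both Met-high arrays, by a log2 ratio of -0.66 (95% confidence interval -1.27 to -0.06, adjusted p = 0.20 in the limma fit over probes). Ppargc1b, the related PGC-1beta, had a log2 ratio of 0.22 (adjusted p = 0.50 in limma). Ppargc1a minus Ppargc1b within an array was lower by 1.28 on the Met-high arrays, without overlap. Ppargc1a already lay apart on its own and Ppargc1b was named after its values were seen, so this is no further support. By a 2-fold difference of the means, taken here with no test, Ppargc1a was the 1 member that passed, where 5.30% of all genes were lower by that much in Met-high cells and 2.43% higher. Of the genes past 2-fold, 68.6% were lower in Met-high cells, or 80.2% when arrays were scaled on detected probes.

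**Figure D2:**
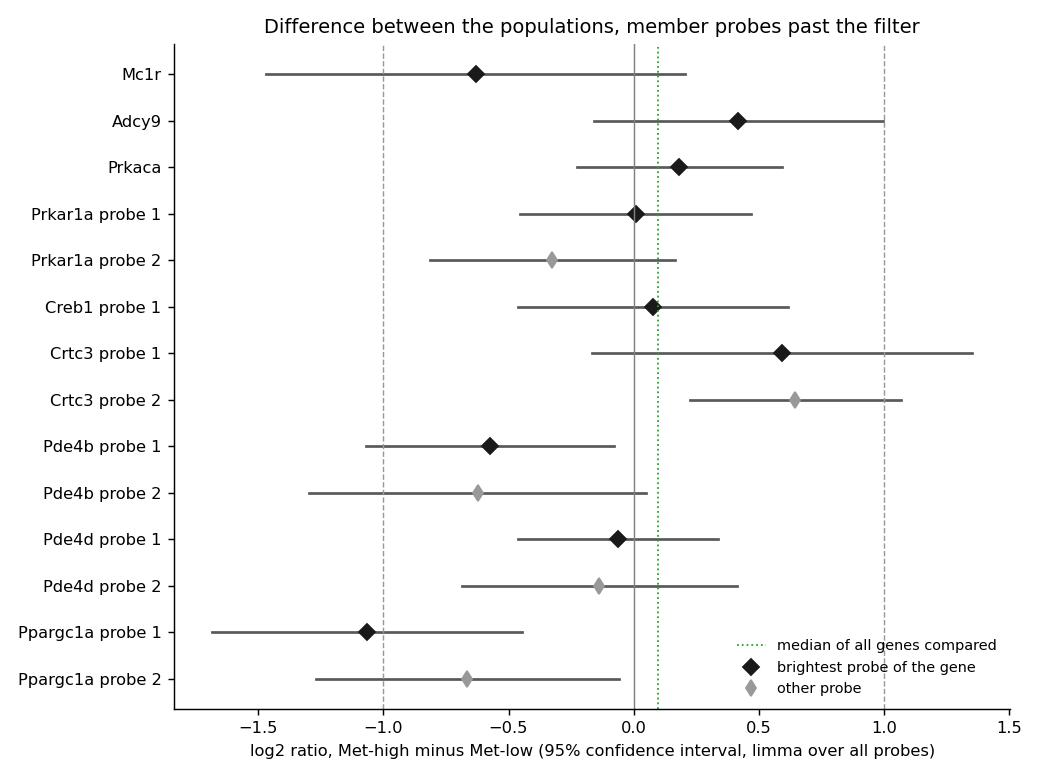
Log2 ratio of Met-high to Met-low cells (x axis) for the 14 member probes in the limma fit over all probes, with 95% confidence intervals as horizontal lines. Dashed lines mark a 2-fold difference in either direction and the dotted line the median of all genes, 0.10. The intervals of both Ppargc1a probes, the brightest Pde4b probe and the second Crtc3 probe do not reach 0, and the other intervals do.

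The other genes of the pathway were read from 13 lists of receptors, ligands, G proteins, enzymes and target genes, which name 111 genes beside the members. Of these, 109 had a probe and 81 passed the filter. In limma, the adjusted p was under 0.05 for 5 genes lower and 3 genes higher in Met-high cells, or 6.17% and 3.70% of the 81 beside the 3.74% and 1.90% of all genes. Of the 5 called lower, Bdnf and Rapgef4 entered the fit through the Met-low arrays alone, where they were brighter, so their place in the count is no support for a difference. The median log2 ratio of the 81 genes was 0.03. In the limma fit over probes, the brightest probes of Akap9, Oca2 and Trpm1 stayed under 0.05 (adjusted p = 0.047, 0.049 and 0.031). Those of Gnaq, Gnao1, Rapgef4, Bdnf and Egr1 did not (0.073, 0.051, 0.065, 0.077 and 0.061). That fit called 2.05% of all probes lower and 0.556% higher.

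Among melanocortin receptors and ligands, 6 of 11 genes with a probe passed the filter and 0 were called. With 1 lower and 0 higher at an unadjusted p under 0.05 in limma, the list stood against 11.8% and 14.2% of all genes. Pomc, the precursor of the melanocortin peptides, had the largest difference, with intensities of 1151 and 1796 in Met-low cells and 532 and 998 in Met-high cells and a log2 ratio of -0.78 (adjusted p = 0.12). Mc1r came second. Mc4r, a melanocortin receptor known from the brain, read 40.6 and 211 in Met-low cells and 6.06 and 6.69 in Met-high cells. It was well above background on the Met-low 2 array only and was not fitted.

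Of the 8 G protein alpha subunits fitted, 2 were called lower in Met-high cells and 0 higher, where 3.74% and 1.90% of all genes were. The unadjusted p in limma was under 0.05 for 3 lower and 1 higher, against 11.8% and 14.2% of all genes. Gnaq, which couples receptors such as Ednrb to phospholipase C, read 1720 and 1956 in Met-low cells and 661 and 617 in Met-high cells, giving a log2 ratio of -1.32 (SE 0.23, adjusted p = 0.040). Its close relative Gna11 had the opposite sign, at 0.71 with an adjusted p of 0.099 in limma. The difference Gnaq minus Gna11 within an array was lower by 2.03 on the Met-high arrays, without overlap. Gnaq already lay apart on its own and Gna11 was named after its values were seen, so this is no further support. Gnao1, an inhibitory-class subunit best known from neurons, read 230 and 288 against 93.5 and 104, a log2 ratio of -1.19 (SE 0.17, adjusted p = 0.027), while its second probe overlapped between populations at -0.82. Gnas, the stimulatory subunit through which Mc1r acts, had a ratio of -0.46 that did not pass (adjusted p = 0.15). The call of Gnaq was lost without Met-low 1 (adjusted p = 0.074) or Met-high 2 (0.061), and that of Gnao1 without the same arrays (0.065 and 0.053), with normexp background correction (ratio -0.76, adjusted p = 0.054) and with the mean of its probes (adjusted p = 0.18).

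Adenylyl cyclases and protein kinase A subunits and inhibitors held 0 called genes, out of 5 and 9 fitted. At an unadjusted p under 0.05 in limma, each of the 2 lists had 1 gene lower and 0 higher, against 11.8% and 14.2% of all genes. Adcy2, a cyclase isoform, read 189 and 190 in Met-low cells and 80.9 and 109 in Met-high cells, giving a log2 ratio of -0.81 (adjusted p = 0.097), opposite in sign to Adcy9. Pkia, a peptide inhibitor of protein kinase A, had a ratio of -0.50 (adjusted p = 0.18) and the regulatory subunit Prkar2b one of 0.37 (adjusted p = 0.25).

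Of the A-kinase anchoring proteins, which tether the kinase to places in the cell, 1 of 9 fitted was called lower and 0 higher. Over all genes these shares were 3.74% and 1.90%. The unadjusted p in limma was under 0.05 for 3 lower and 0 higher, against 11.8% and 14.2% of all genes. Akap9, the anchor of the centrosome and Golgi, had intensities of 700 and 1190 in Met-low cells and 90.4 and 224 in Met-high cells. This was the largest difference toward Met-low cells among all pathway genes fitted, a log2 ratio of -2.48 (SE 0.34, adjusted p = 0.023) or 5.60-fold. Of the exchange factors that cAMP activates directly, 1 of 4 fitted was called, Rapgef4 (Epac2), beside the 3.74% of all genes called lower. It entered the fit through the Met-low arrays alone, where it was brighter, so its call is no support for a difference. It read 74.9 and 112 against 37.8 and 48.7, with 1 of 2 Met-high arrays well above background, and its log2 ratio of -0.90 (adjusted p = 0.039) lost its call when any single array was left out (adjusted p between 0.077 and 0.12), with quantile normalization (0.068) and with normexp (ratio -0.29).

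Phosphodiesterases of both lists held 0 called genes among 6 cAMP-specific and 5 dual-specificity genes fitted. At an unadjusted p under 0.05 in limma, 2 and 1 were lower and 0 higher, against 11.8% and 14.2% of all genes. Of the 2, Pde8b entered the fit through the Met-low arrays alone, so its place in the count is no support for a difference. Pde8b, a cAMP-specific enzyme, read 77.5 and 89.7 in Met-low cells and 8.05 and 27.7 in Met-high cells, where it was not well above background on either array. It was at least 2.56-fold lower there (adjusted p = 0.058), a bound set by the lowest signal that each Met-high array counted as detected. With an array left out its adjusted p lay between 7.1e-04, without Met-high 2, and 0.052, without Met-low 1; quantile normalization gave 0.10, and normexp a log2 ratio of -0.55 (adjusted p = 0.13). Its Met-high values are background readings, so these p-values are no support for a size of the difference. Pde11a and Pde1c, of dual specificity, had log2 ratios of -0.88 (adjusted p = 0.31) and -0.72 (adjusted p = 0.065).

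Of the CREB family, its coactivators and the SIK kinases that restrain them, 11 of 11 genes were fitted and 0 called. With 1 lower and 0 higher at an unadjusted p under 0.05 in limma, the list stood against 11.8% and 14.2% of all genes. After Crtc3, the largest difference was that of the acetyltransferase Ep300 at -0.46 (adjusted p = 0.16 in limma). Among PGC-1 coactivators and their partners, 0 of 6 were called. By the unadjusted p in limma 1, Ppargc1a, was lower and 0 higher at 0.05, beside the same shares of all genes. Classical CREB target genes, which hold 3 of the members, were called lower for 1 and higher for 1 of 15 genes fitted. Over all genes 3.74% were called lower and 1.90% higher. The unadjusted p in limma was under 0.05 for 5 lower and 1 higher, against 11.8% and 14.2% of all genes. Bdnf, the gene called lower, entered the fit through the Met-low arrays alone, so its place in both counts is no support for a difference. Egr1, an immediate early transcription factor, read 87.9 and 116 in Met-low cells and 263 and 230 in Met-high cells, giving a log2 ratio of 1.48 (SE 0.23, adjusted p = 0.032). Bdnf, a neurotrophin, read 51.0 and 122 against 9.35 and 22.7, and as neither Met-high array was well above background it was at least 2.41-fold lower (adjusted p = 0.042). That p rests on background readings in Met-high cells, and the call was lost with normexp (ratio -0.62, adjusted p = 0.091) and with quantile normalization (adjusted p = 0.066). Nr4a3, an orphan nuclear receptor, differed by over 2-fold with overlapping arrays (log2 ratio -1.11, adjusted p = 0.55), and without the Met-high 2 array the ratio was 0.33.

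All 11 genes of the Mitf and pigment list were fitted. In Met-high cells 2 were called higher and 0 lower, where 1.90% and 3.74% of all genes were. Oca2, a melanosome transporter whose loss causes albinism, read 768 and 1910 in Met-low cells and 3872 and 5710 in Met-high cells, giving a log2 ratio of 2.15 (SE 0.30, adjusted p = 0.024). Trpm1, the melastatin channel that Mitf activates, had intensities 10899 and 14973 in Met-low cells and 26127 and 31115 in Met-high cells, with a ratio of 1.36 (SE 0.16, adjusted p = 0.016). Its 2 dimmer probes gave 0.73 and -0.33, and the mean of the 3 probes 0.59 with an adjusted p of 0.11. Mitf itself had a ratio of -0.14 (adjusted p = 0.61) and Tyr, tyrosinase, one of -0.04 (adjusted p = 0.93), with -0.35 on its second probe, where the Met-high arrays lay below the Met-low arrays (adjusted p = 0.31 in the limma fit over probes). This list overlaps genes that the study examined on these samples, so its direction is not independent evidence.

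**Figure D3:**
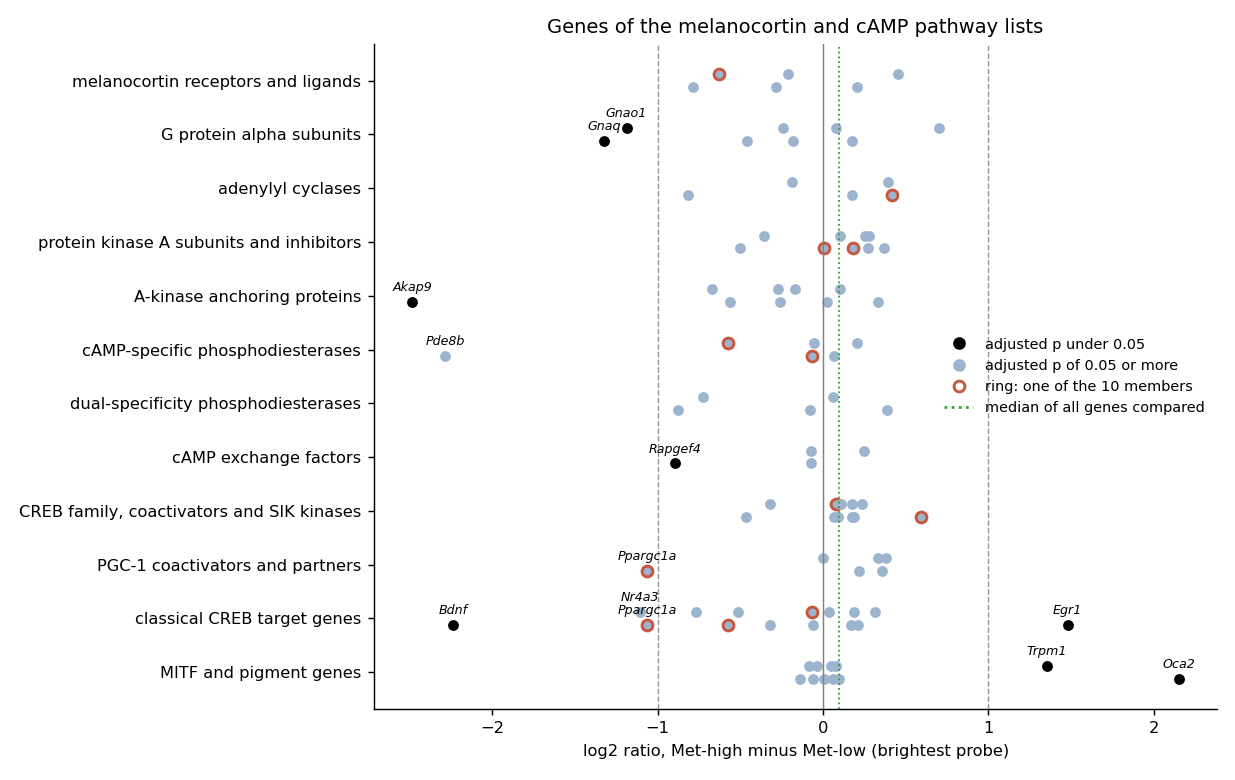
Log2 ratio of Met-high to Met-low cells (x axis) of each gene fitted, by pathway list (rows); black points have an adjusted p under 0.05, red rings mark the members, dashed lines a 2-fold difference and the dotted line the median of all genes. A gene in 2 lists is drawn in both, names are given for called genes and those past 2-fold, and the endothelin list has no row because 0 of its genes passed the filter. The named points below -1 include Akap9 at -2.48 and Gnaq at -1.32, and those above 1 are Egr1, Trpm1 and Oca2.

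**Figure D4:**
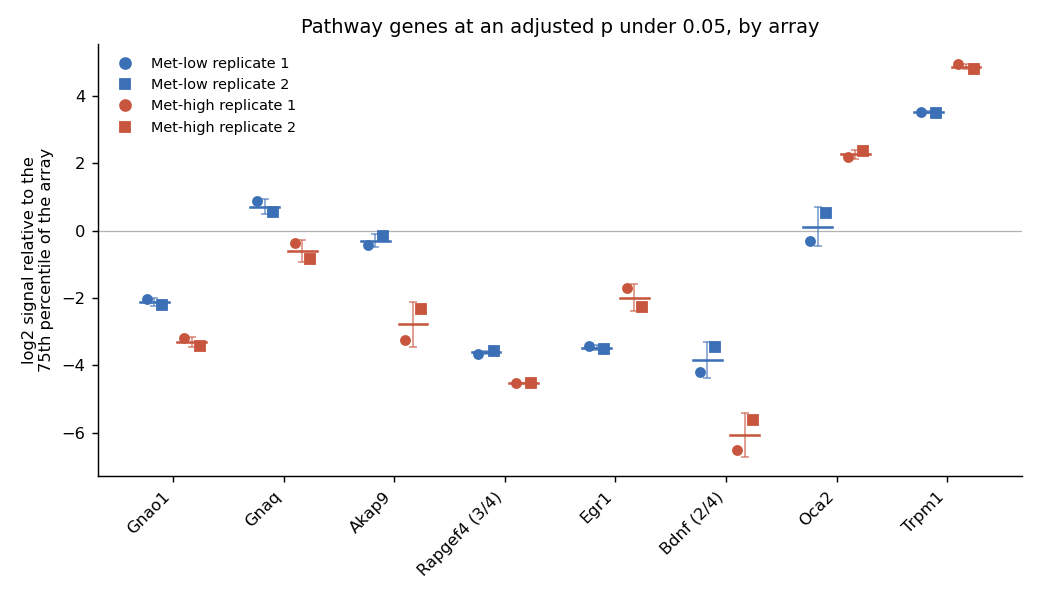
Log2 signal above or below the 75th percentile on that array (y axis) of the 8 pathway genes at an adjusted p under 0.05, with 1 point per array, bars for the mean and whiskers for the SD of 2 arrays. Fractions give the arrays well above background where that was not all 4. For each gene the Met-high points (red) and Met-low points (blue) do not overlap, and Bdnf in Met-high cells is at background.

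**Figure D5:**
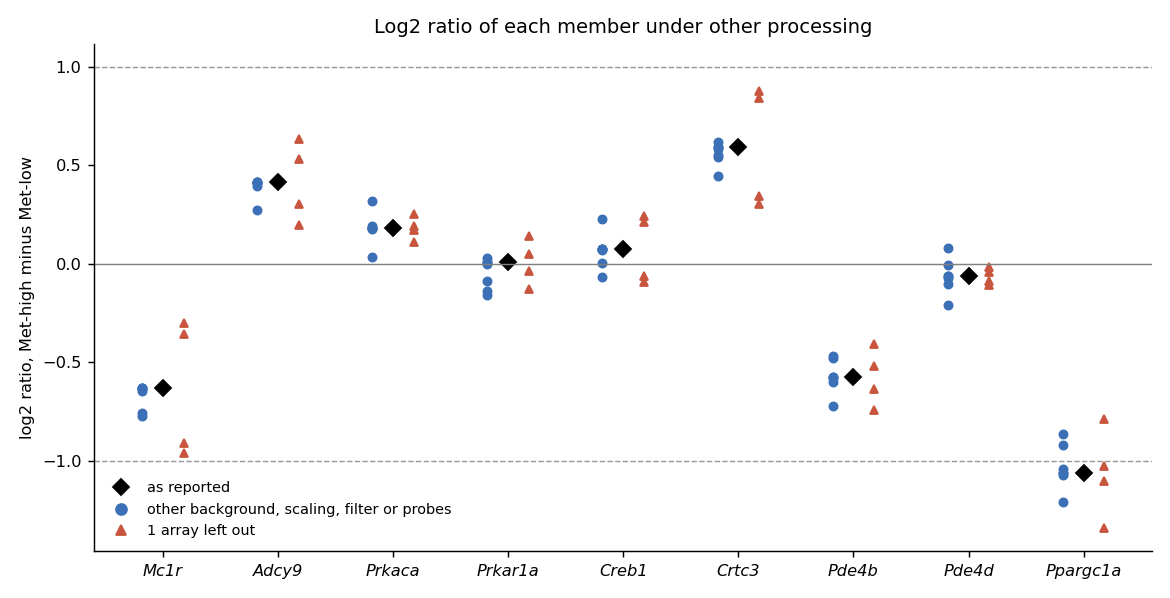
Log2 ratio (y axis) of the 9 members fitted, as reported (black diamonds), under other background corrections, scalings, filters or probes (blue circles) and with 1 array left out (red triangles). Mc1r, Pde4b and Ppargc1a stayed below 0 and Adcy9, Prkaca and Crtc3 above 0 at every setting drawn, while Prkar1a, Creb1 and Pde4d crossed 0.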

How the data were processed

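RNA of 2 Met-low and 2 Met-high samples was measured on 1-colour Agilent mouse 4 x 44k arrays. Per array, the authors deposited scanner output with a background-corrected, linear intensity for each spot and marks for outlier, saturated and clearly detected spots; the labels name Feature Extraction 10.7.3.1 and the file headers 11.0.1.1. The authors also deposited a table of log2 values, which matched the scanner intensity relative to the 75th percentile of the array, centred per probe (93.0% to 99.5% of 39429 probes within 0.01); it served as an alternative. The centring leaves only differences between arrays readable there, and the column medians were 0.15, -0.04, 0.04 and -0.12.

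Intensities were taken to log2 minus the 75th percentile of each array (942 and 1331 for Met-low, 858 and 1111 for Met-high). Flagged spots (207 to 232 per array) were left out and spots of a probe averaged. Accessions named 27427 probes through RefSeq (GRCm38.p6, names only); 12002 were unmatched and 2 listed symbols had no probe. A gene was represented by its brightest probe over all arrays and kept if clearly detected (well above background) on both arrays of either population. The comparison used limma 3.58.1 (lmFit, eBayes; R 4.3.3) and Benjamini-Hochberg adjustment over all genes or probes kept, threshold 0.05, two-sided; the number of arrays limits the precision. A gene well above background on no array of a population has a bound in place of a fold. The bound sets the mean of the brighter population against, per array of the other, whichever is higher, that probe's signal or the lowest one counted as well above background. The fit was checked on simulated data. Alternatives were normexp (offset 50, on median signals), quantile normalization, scaling on detected probes, flagged spots kept, the deposited values, no filter or a stricter one, the mean of a gene's probes, a mean-variance trend, the replicate number as a block, and each array left out; a population left with 1 array was assumed to vary like the other. With 1 slide and 1 scan, neither could be a block.

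Members and lists were chosen with earlier results of these data known. Named were all members with every probe, and from each list the genes at an adjusted p under 0.05, those over 2-fold, and otherwise the 2 with the largest ratio. Gna11, Gnas, Crtc1, Crtc2, Ppargc1b, Edn3, Ednra, Mc3r, Mc4r, Mc5r, Mitf and Tyr were named after their values were seen.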

Additional observations from a re-analysis of the deposited data

How the results depend on the processing

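Over 14 other settings, Mc1r, Pde4b and Ppargc1a stayed lower and Adcy9, Prkaca and Crtc3 stayed higher in Met-high cells. Members called lower rose from 0 to 1 with a mean-variance trend (Ppargc1a, adjusted p = 0.040) and ranged from 0 to 1 with an array left out. No label says whether same-numbered arrays share a preparation. The deviations of same-numbered arrays correlated at 0.53 over 11958 genes. With the replicate number as a block in limma, 2 members were called lower (Ppargc1a, adjusted p = 0.024, and Mc1r, 0.023) and 1 higher (Crtc3, 0.025). With this block, 17 other pathway genes were called lower and 5 higher. Over all genes 1556 were called lower and 1936 higher, against 447 and 227 without it. Other pathway genes called lower went from 5 to 2 with normexp, 3 with quantile normalization, 0 with no filter on dim probes and between 2 and 5 with an array left out (2 without Met-low replicate 1 and 3 when Met-high replicate 2 was dropped); those called higher went from 3 to 0 with no filter. With no filter 8 genes in all were called lower and 0 higher, of 20832 tested with many near background. With scaling on detected probes, 7 other pathway genes were called lower and 2 higher, and of all genes 598 were called lower. All genes called higher numbered 143 with scaling on detected probes, 392 with the trend and between 149 (without Met-low replicate 1) and 242 with an array left out. Members past 2-fold fell from 1 to 0 with normexp, with the mean of a gene's probes and without Met-high replicate 2. Ratios near 0 changed sign, none of them called: Prkar1a was -0.087 with quantile normalization, -0.14 with scaling on detected probes and -0.16 with the mean of its probes, and between -0.13 and 0.14 with an array left out; Creb1 was -0.068 with scaling on detected probes and between -0.092 and 0.25 with an array left out; Pde4d was 0.079 with quantile normalization; and Nr4a3 was between -2.54 and 0.33 with an array left out, above 0 without Met-high replicate 2 only. Scaling on detected probes moved the median of all genes from 0.10 to -0.05. Of the called pathway genes, Egr1 had an adjusted p of 0.051 with that scaling, and Gnao1, Bdnf and Rapgef4 had ratios of -0.76, -0.62 and -0.29 with normexp and were no longer called; Bdnf and Rapgef4 lost their calls with quantile normalization too, and Gnao1 and Trpm1 with the mean of their probes; the cause was not tested.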
